A study of Mus musculus with 20 samples.

Results

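The 8 genes described here were chosen by name as ligands, receptors and a target of the TGF-beta pathway, and they were 8 of the 54532 genes counted in every library. The ligands were Tgfb1, Tgfb2, Tgfb3 and Inhba, the receptors were Tgfbr1, Tgfbr2 and Tgfbr3, and the target was Tgfbi. Each was followed across colorectal liver metastasis (CRLM) tissue with increasing tumor content and in 2 populations of cells sorted from the metastases.

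TGF-beta is secreted as a latent dimer that is held in the extracellular matrix until integrins, proteases or thrombospondin release it. The active ligand binds the type II receptor Tgfbr2, which phosphorylates the type I receptor Tgfbr1, and the signal reaches the nucleus through SMAD proteins. In the liver the pathway is best known for driving stellate cells to make matrix, and in tumors it is known for restraining immune cells and for epithelial-mesenchymal transition.

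All samples came from wild-type (WT) mouse liver, of the strain C57BL/6 by the study's Methods. Normal liver (con, 2 samples) was taken at Day 0 after normal saline. The other groups came from mice injected with 1000000 MC38 cells, a murine colon adenocarcinoma line of the same strain, which reached the liver through the portal circulation. Liver with a low tumor content (Lt) and the first medium group (Mt3) were taken at Day 9, the medium groups Mt2 and Mt1 at Day 11, and liver with a high tumor content (Ht) at Day 12. Day thus rose along with tumor content, and in the comparisons of tissue groups the 2 cannot be told apart. The medium groups, averaged as Mt in the comparisons, span Day 9 and Day 11. Lt, Mt3, Mt2 and Mt1 had 2 samples each. Ht had 3 libraries, of which Ht_1 and Ht_3 were summed to 1 sample because the Methods describe them as made identical, so that 2 samples remained. L-con, a single library of tumor-free liver from a CRLM-bearing mouse at Day 12, was described without a test. Microbeads were used to isolate F4/80+ and CD11b+ cells from Mt2 metastases at Day 11 (3 samples each). F4/80 is a surface marker of mouse macrophages, and CD11b is an integrin of monocytes, macrophages and neutrophils. Nothing in the sources used here says how many animals a sorted sample drew on, so p-values measure the spread between these samples.

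The tissue libraries held 16032085 to 18246623 counts and the sorted-cell libraries 17785496 to 20548370. The floor used here was 3 counts, worth 0.146 to 0.187 counts per 1000000 counts of a library. Levels are in CPM, counts per 1000000 after each library total was multiplied by its TMM scaling factor in the fit of all samples. These factors ran from 0.664 in con replicate 1 to 1.53 in Ht replicate 1, so the floor and the levels are on different scales. Hepatocyte markers (13 genes, Alb among them) summed to 187752 and 217111 CPM in con and to 3549 and 5319 for Ht. Within Mt2 they summed to 107453 CPM in replicate 1 and 26855 CPM in replicate 2, and within Mt1 to 97263 and 26802 CPM, so replicates of the same group differed widely in these sums. The Lt samples also stood apart, at 174522 CPM in replicate 1 and 95711 CPM in replicate 2. The tissue labels give male mice, and the Methods give female mice. The Y-linked gene Ddx3y had 558 to 1421 counts in the tissue libraries and 0 in the sorted cells, whereas Xist had 0 to 3 counts in tissue and 5547 to 21805 in the sorted cells. Sex, sequencing table and kind of sample therefore cannot be told apart wherever sorted cells are set against tissue.

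Promoter sequences are shown for the 4 members that were already higher in Lt than in con and had an entry in the RefSeq promoter table used here (GRCm38.p6), since these genes moved together in tissue and their promoters can be compared. Promoters of 6 of the 8 members were used, and those of Tgfb3 and Tgfbr3 were not used here. Each line runs 5′ to 3′ up to the base before the transcription start. Capitals mark matches on either strand to the SMAD box (CAGAC or GTCTG), the GC box bound by SP1-type factors (GGGCGG or CCGCCC), the AP-1 site (TGANTCA) and the TATA box (TATAAA or TTTATA).
Tgfb1: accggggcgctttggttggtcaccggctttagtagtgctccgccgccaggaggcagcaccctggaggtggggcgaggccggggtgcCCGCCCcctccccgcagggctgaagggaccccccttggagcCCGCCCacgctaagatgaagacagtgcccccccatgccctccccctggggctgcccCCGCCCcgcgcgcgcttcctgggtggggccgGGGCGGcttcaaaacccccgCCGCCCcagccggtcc
Tgfbr2: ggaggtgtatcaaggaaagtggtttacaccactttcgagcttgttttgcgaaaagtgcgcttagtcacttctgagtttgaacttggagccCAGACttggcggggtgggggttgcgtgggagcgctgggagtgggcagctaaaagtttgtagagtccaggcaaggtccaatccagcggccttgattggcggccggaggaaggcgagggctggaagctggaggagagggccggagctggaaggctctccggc
Tgfbi: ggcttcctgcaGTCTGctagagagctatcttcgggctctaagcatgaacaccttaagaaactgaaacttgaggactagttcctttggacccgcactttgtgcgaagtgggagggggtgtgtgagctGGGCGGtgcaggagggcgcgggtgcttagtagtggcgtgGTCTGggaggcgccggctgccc
Inhba: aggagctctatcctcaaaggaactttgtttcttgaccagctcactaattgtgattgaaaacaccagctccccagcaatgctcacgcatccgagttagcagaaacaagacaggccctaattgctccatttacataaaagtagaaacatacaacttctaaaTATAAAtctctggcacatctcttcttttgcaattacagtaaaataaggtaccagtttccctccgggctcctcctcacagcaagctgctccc
These stretches lie at chr7:25686752-25687001 on the plus strand for Tgfb1, chr9:116175364-116175613 on the minus strand for Tgfbr2, chr13:56609336-56609522 on the plus strand for Tgfbi and chr13:16011601-16011850 on the plus strand for Inhba. The Tgfb1 promoter held 5 GC boxes and no TATA box, with a GC content of 75.2%, and the Inhba promoter held a TATA box and no GC box, with a GC content of 43.2%. The SMAD box was matched 2 times in Tgfbi and 1 time in Tgfbr2 and was not matched in Tgfb1 or Inhba. Of 32851 promoter entries of 250 bases, 42.2% held a SMAD box, 32.7% a GC box, 12.4% a TATA box and 6.75% an AP-1 site, so the matches are a description of these letters and not of bound factors. The Tgfbi stretch was 187 bases long, because it ends before the gene's start in the deposited annotation, and its matches cannot be read directly against shares over 250 bases. No motif was matched in all 4 promoters. Even the commonest motif was held by only 42.2% of entries, so no conclusion is drawn from this. Among the members not called from con to Lt, the Tgfb2 promoter held 2 SMAD boxes and 1 TATA box, and the Tgfbr1 promoter held 2 GC boxes.

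Tgfb1 (ENSMUSG00000002603, GRCm38 chromosome 7 from 25687002 to 25705077), the ligand most used by immune cells, was measured at 20.2 and 14.8 CPM in con. It stood at 26.6 and 50.5 for Lt, 42.4 and 37.98 for Mt3, 55.1 and 75.1 for Mt2, 62.2 and 77.7 for Mt1, and 72.03 and 75.7 for Ht. Every CRLM sample was above both con samples, and the 2 Lt samples were far apart, with Mt3 lying between them. From con to Lt, Tgfb1 rose by 1.14 on the log2 scale (standard error, SE, 0.31; padj, the Benjamini-Hochberg adjusted p of edgeR's quasi-likelihood test, = 0.0372), and from con to Ht by 2.06 (SE 0.31, padj = 0.000518).

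Tgfb3 (ENSMUSG00000021253, chromosome 12 from 86056745 to 86079041, minus strand), a ligand typical of mesenchymal cells, had the largest log2 fold change of the members from con to Ht. Its levels were 2.11 and 0.949 CPM in con, 7.24 and 11.5 for Lt, 9.26 and 10.9 for Mt3, 12.3 and 32.5 for Mt2, 13.6 and 33.7 for Mt1, and 39.1 and 39.6 for Ht. The Ht samples were above all others, and the higher sample of Mt2 and of Mt1 was in each case the replicate with the lower hepatocyte sum. Tgfb3 rose by 2.63 from con to Lt on the log2 scale (SE 0.64, padj = 0.0247) and by 4.67 from con to Ht (SE 0.65, padj = 0.000377). Without con replicate 1 the differences were 3.30, which no longer passed (padj = 0.0629), and 5.35. Ttll5 overlaps Tgfb3 on the opposite strand with 61 to 495 counts per library, and the library kit named in the labels does not mark strand, so reads in the overlap cannot be told apart.

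Tgfb2 (ENSMUSG00000039239, chromosome 1 from 186622792 to 186705989, minus strand) had the lowest level per length of the 4 ligands in every group, at 0.175 FPKM in con. It was measured at 0.824 and 1.21 CPM in con, 1.04 and 1.27 for Lt, 2.60 and 2.03 for Mt3, 2.28 and 3.89 for Mt2, 2.06 and 5.17 for Mt1, and 3.23 and 2.67 for Ht. Lt overlapped con, and all samples from Mt3 onward were above both. The difference from con to Lt was 0.19 on the log2 scale (SE 0.55, padj = 0.838), and the rise from con to Ht was 1.52 (SE 0.51, padj = 0.0265). With any 1 of the con or Ht samples left out, Tgfb2 no longer passed from con to Ht, at adjusted p values from 0.0529 to 0.133.

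Inhba (ENSMUSG00000041324, chromosome 13 from 16011851 to 16031621), which encodes the subunit of activin A, was at 4.67 and 12.8 CPM in con. It was at 32.8 and 43.7 for Lt, 44.5 and 38.7 for Mt3, 50.2 and 73.2 for Mt2, 41.7 and 63.3 for Mt1, and 64.4 and 60.4 for Ht. No CRLM sample reached down to con, although the con samples themselves were far apart. Inhba rose by 2.14 from con to Lt (SE 0.42, padj = 0.00984) and by 2.82 from con to Ht (SE 0.42, padj = 0.000504). The size rested on the con samples, at 3.02 and 3.71 without con replicate 2 and 1.58 and 2.28 without con replicate 1.

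**Figure D1:**
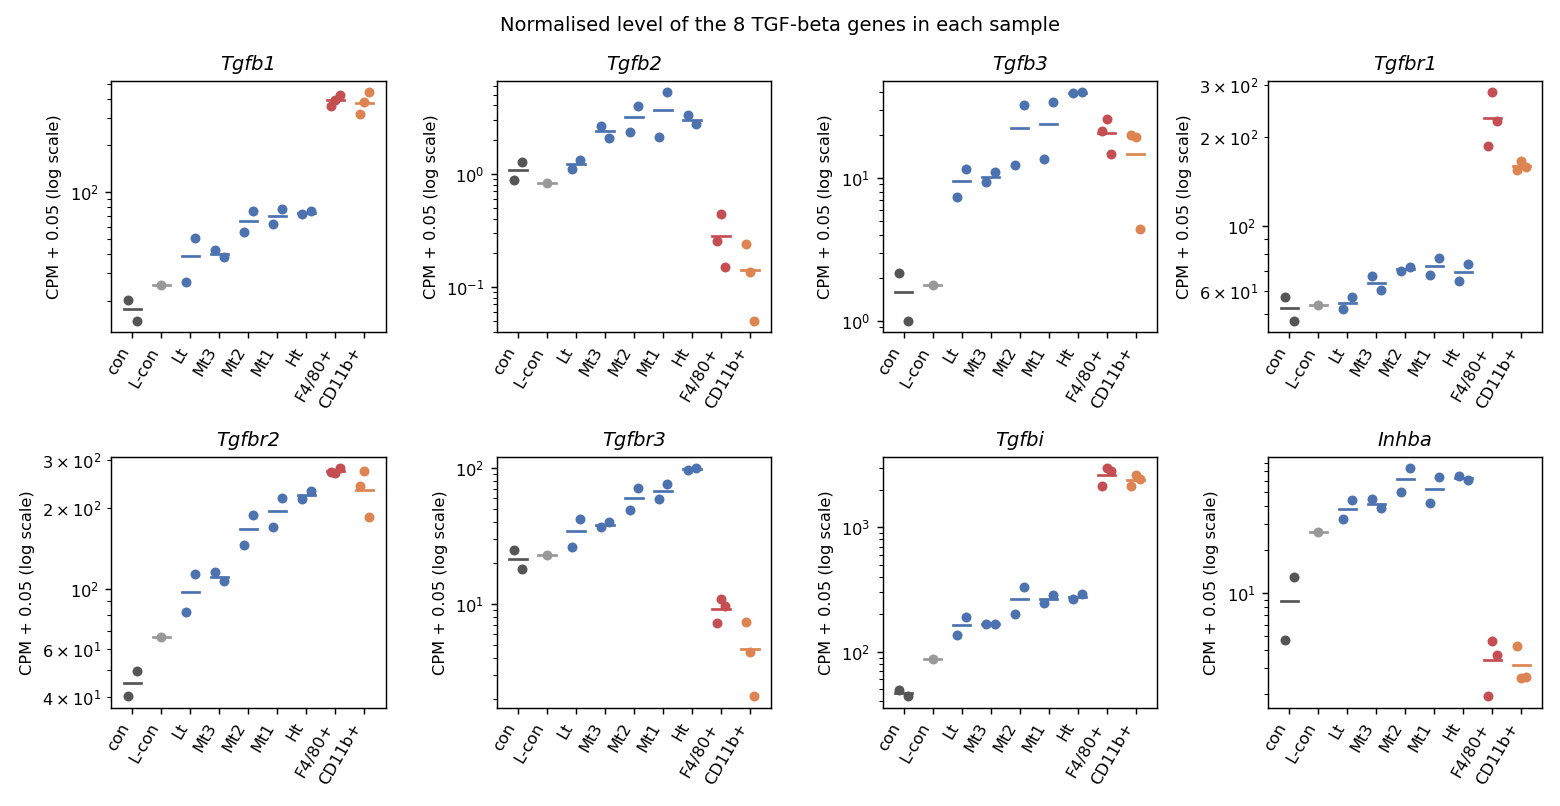
Level of each of the 8 genes in CPM plus 0.05 on a log axis, by group; points are samples, short lines are group means, and tissue is blue or grey and sorted cells red or orange. Tgfb3 spans 0.949 to 39.6 CPM across tissue, while Tgfbr1 spans 47.5 to 77.7 CPM.

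Among the receptors, Tgfbr2 rose and Tgfbr1 stayed within a narrow range. Tgfbr2 (ENSMUSG00000032440, chromosome 9 from 116084293 to 116175360, minus strand), the receptor that binds the ligand first, was measured at 40.0 and 49.8 CPM in con, 82.0 and 113 for Lt, 115 and 107 for Mt3, 146 and 187 for Mt2, 170 and 217 for Mt1, and 215 and 230 for Ht. Neighbouring groups overlapped from Lt to Mt3, from Mt2 to Mt1 and from Mt1 to Ht, and con stood below all of them. The rise was 1.13 from con to Lt on the log2 scale (SE 0.23, padj = 0.0120) and 2.29 from con to Ht (SE 0.24, padj = 0.000129).

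Tgfbr1 (ENSMUSG00000007613, chromosome 4 from 47353222 to 47414931), the kinase that signals to the SMADs, was at 57.2 and 47.5 CPM in con, 52.0 and 57.2 for Lt, 67.4 and 60.5 for Mt3, 70.0 and 72.5 for Mt2, 68.1 and 77.7 for Mt1, and 65.0 and 74.0 for Ht. Both Ht samples were above both con samples, by less than the threshold on the fold. The log2 difference was 0.06 from con to Lt (SE 0.16, padj = 0.811) and 0.39 from con to Ht (SE 0.16, padj = 0.0524). With counts scaled to the library total in place of TMM, the difference from con to Ht was 1.58 and passed (padj = 0.000743), while the median of all genes was 1.28 on that scale.

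Tgfbr3 (ENSMUSG00000029287, chromosome 5 from 107106570 to 107289629, minus strand), betaglycan, a co-receptor that presents TGF-beta to Tgfbr2 and without which Tgfb2 binds poorly, was at 24.5 and 17.8 CPM in con. It was at 25.9 and 41.9 for Lt, 36.3 and 39.7 for Mt3, 48.6 and 71.2 for Mt2, 59.0 and 76.0 for Mt1, and 95.5 and 98.9 for Ht. The lower Lt sample lay just above con and the Ht samples lay above every other library. The difference from con to Lt was 0.69 (SE 0.28, padj = 0.146), and the rise from con to Ht was 2.18 (SE 0.29, padj = 0.000304). Ht_1 and Ht_3, the libraries summed to 1 sample, had 80.1 and 114 CPM of Tgfbr3 when kept apart, a wider gap than between the 2 Ht samples used.

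Tgfbi (ENSMUSG00000035493, chromosome 13 from 56609523 to 56639562), a matrix protein named for its induction by TGF-beta, was measured at 49.6 and 43.8 CPM in con and at 137 and 191 for Lt. It was at 168 and 169 for Mt3, 201 and 334 for Mt2, 248 and 287 for Mt1, and 264 and 290 for Ht. The step from con to Lt was wider than any later step, and Mt2, Mt1 and Ht overlapped. Tgfbi rose by 1.81 from con to Lt (SE 0.28, padj = 0.00338) and by 2.55 from con to Ht (SE 0.28, padj = 0.00016). It was the only member called from con to Lt under all 12 of its alternatives.

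From con to Lt, 5 of the 8 members were called higher and 0 lower, namely Tgfb1, Tgfb3, Tgfbr2, Tgfbi and Inhba. A gene was called when its adjusted p was at most 0.05 and its log2 fold change was at least 1 in size, and by that rule 12.7% of the 17187 genes tested were changed, 12.4% higher and 0.256% lower. The members' median log2 fold change was 1.13, against 0.10 over all genes, and it was 0.73 without Lt replicate 2 and 1.42 without Lt replicate 1. The count of members called was 1 without Lt replicate 2, 2 without con replicate 1 and 2 without con replicate 2. The calls over all genes also fell with these samples left out, from 2177 to 918, 1428 and 735. With con replicate 1 or 2 left out, Tgfbi and Inhba were the 2 that passed. Markers of other cell types were higher in the same comparison, with 7 of 13 macrophage, 5 of 6 monocyte, 5 of 8 neutrophil and 5 of 12 stellate cell and fibroblast markers called higher and 0 lower. Monocyte markers summed to 226 CPM in Lt replicate 1 and 534 CPM in Lt replicate 2, with the hepatocyte sum lower in replicate 2, and the part of these markers in the members' values was not tested.

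From Lt to Mt, the mean of the groups Mt3, Mt2 and Mt1, 0 of the 8 members were called, and 0% of all genes were, although 778 genes were called without Mt2 replicate 1. All 8 members had a log2 difference above 0, with a median of 0.58 that became 0.31 without Lt replicate 1 and 0.96 without Lt replicate 2, and the values ran from 0.32 for Tgfbr1 to 1.33 for Tgfb2. At an unadjusted p under 0.05 the edgeR test passed 4 members and 3282 of all genes (19.1%), and DESeq2 called 0 members and 242 genes. From Mt to Ht, 0 of the 8 members were called against 14.9% of all genes, 1.5% higher and 13.4% lower. Without Ht replicate 1 or without Ht replicate 2 edgeR called 0 genes. At an unadjusted p under 0.05, 3 of the 8 members passed with all samples, against 40.6% of all genes, and DESeq2 called 1 member, Tgfb3, and 2951 genes. Tgfbr3 was nearest, with a log2 difference of 0.86 (SE 0.21, padj = 0.0242) that missed the threshold on the fold, and Tgfb3 had 1.16 (SE 0.40, padj = 0.0611). Tgfb3 passed with the replicate number as a block (1.26, padj = 0.0232), without Mt2 replicate 2 (1.46, padj = 0.0109) or without Mt1 replicate 2 (1.43, padj = 0.0263). In Mt2 and Mt1, replicate 2 was the sample with the lower hepatocyte marker sum, and the part of that sum in these calls was not tested.

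From con to Ht, 7 of the 8 members were called higher, all but Tgfbr1, and 49.9% of all genes were changed, 25.8% higher and 24.1% lower. The lowest Ht sample was above the highest con sample for all 8 members, as it was for 45.6% of all genes tested. The median log2 fold change of the members was 2.24, against 0.09 over all genes. With total-count scaling the members' median was 3.42 and that of all genes 1.28, so the members stood 2.14 above all genes with TMM and 2.15 with total counts, and 8822 genes were then called higher and 2249 lower, in place of 4437 and 4139. With 1 con or Ht sample left out the count was 6 in each case.

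**Figure D2:**
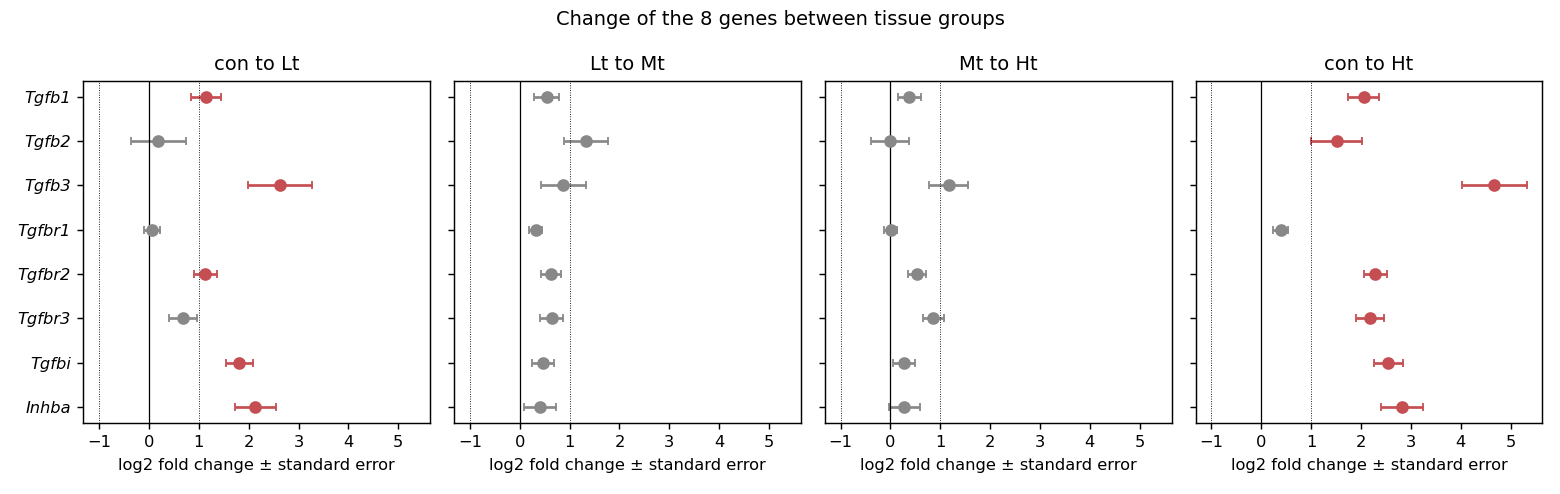
Log2 fold change of each member with its standard error between tissue groups; red points were called, grey points were not, and dotted lines mark the threshold of 1 on the log2 scale. From con to Ht, 7 points are red, with Tgfb3 farthest out at 4.67; from Lt to Mt and from Mt to Ht all are grey.

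Markers of several cell types moved with these genes from con to Ht. All 13 hepatocyte markers were called lower. Of 13 macrophage markers 9 were higher and 1 lower, with a summed level of 528 and 761 CPM in con and 2398 and 2443 for Ht, and all 6 monocyte markers were higher, from 9.75 and 12.8 CPM to 839 and 846 CPM. Of 12 stellate cell and fibroblast markers 5 were higher and 5 lower, with sums of 356 to 471 CPM in con and 505 to 525 for Ht. Of 13 endothelial markers 5 were lower and 0 higher, with sums of 573 and 641 CPM in con and 263 and 279 for Ht, and of 6 Kupffer cell markers 3 were lower and 0 higher, with 337 and 448 CPM in con and 81.8 and 135 for Ht. The part of these shifts in the members' values was not tested. In bulk tissue, fewer cells of a type and less RNA per cell cannot be told apart, and MC38 cells and host cells are read together.

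Ratios between members within a library do not depend on the scaling of that library. Per length (FPKM, the CPM divided by the deposited gene length in kilobases), the Tgfb3 level was 0.155 and 0.0953 of the Tgfb1 level in con, and 0.406 and 0.341 for Lt. It reached 0.333 and 0.646 for Mt2, 0.326 and 0.646 for Mt1, and 0.809 and 0.780 for Ht. Tgfb3 thus approached Tgfb1 for Ht, and Tgfb1 fell from 84.0% and 85.7% of the summed FPKM of the 3 Tgfb genes in con to 54.1% and 55.2% in Ht. The FPKM of Tgfbr2 was 0.558 and 0.836 of that of Tgfbr1 in con, 1.26 and 1.58 for Lt, and 2.64 and 2.48 for Ht. The order of the receptors was therefore reversed between con and Lt. These ratios are given as values without a test.

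**Figure D3:**
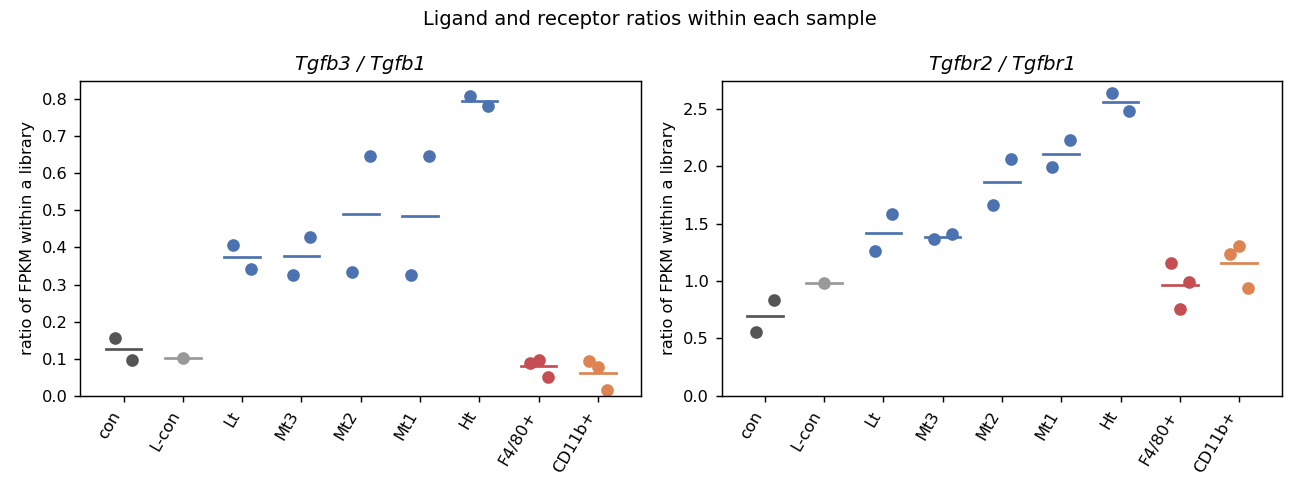
Ratio of FPKM of Tgfb3 to Tgfb1 and of Tgfbr2 to Tgfbr1 within each sample; points are samples and lines are group means. Both ratios are highest in Ht, at 0.780 and 0.809 for the ligands and 2.48 and 2.64 for the receptors, and the sorted cells lie far below Ht.

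As a check of the sort, Adgre1, the gene of F4/80, was at 734 ± 47.0 CPM (SD, n = 3) in F4/80+ cells and 530 ± 20.2 CPM (SD, n = 3) in CD11b+ cells, and Itgam, the gene of CD11b, was at 265 ± 27.2 CPM and 385 ± 47.4 CPM (SD, n = 3 each). Both populations thus carried both markers. Summed macrophage markers were 15243 to 17074 CPM in F4/80+ cells and 13496 to 20989 CPM in CD11b+ cells, against 1602 and 2048 CPM in Mt2 tissue. Kupffer cell markers summed to 603 to 2385 CPM in F4/80+ cells and 56.0 to 124 CPM in CD11b+ cells, and neutrophil markers to 175 to 540 CPM and 1266 to 4024 CPM.

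Tgfb1, Tgfbi and Tgfbr1 were enriched in both populations. Tgfbi was at 2144, 2987 and 2824 CPM in F4/80+ cells and at 2128, 2609 and 2455 CPM in CD11b+ cells, all far above the 201 and 334 CPM of Mt2 tissue. Its log2 fold change against Mt2 was 3.31 in F4/80+ cells (SE 0.30, padj = 7.4e-07) and 3.16 in CD11b+ cells (SE 0.30, padj = 8.13e-07). Tgfb1 was at 361, 391 and 422 CPM in F4/80+ cells and at 317, 378 and 438 CPM in CD11b+ cells. Every sorted sample exceeded every tissue sample, and Tgfb1 was higher than in Mt2 by 2.59 (SE 0.28, padj = 3.55e-06) and 2.53 (SE 0.28, padj = 3.57e-06). Tgfbr1 was at 186, 283 and 226 CPM in F4/80+ cells and at 155, 166 and 158 CPM in CD11b+ cells, higher than in Mt2 by 1.70 (SE 0.19, padj = 4.5e-06) and 1.16 (SE 0.19, padj = 0.000106). The receptor that changed least in tissue was therefore among the members raised in sorted cells.

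Inhba, Tgfbr3 and Tgfb2 were depleted in both populations. Inhba was at 1.87, 4.57 and 3.65 CPM in F4/80+ cells and at 4.27, 2.54 and 2.55 CPM in CD11b+ cells, against 50.2 and 73.2 for Mt2, and its log2 fold changes were -4.19 (SE 0.41, padj = 1.19e-06) and -4.30 (SE 0.41, padj = 8.17e-07). Tgfbr3 was at 7.12, 10.7 and 9.52 CPM in F4/80+ cells and at 7.31, 4.36 and 2.03 CPM in CD11b+ cells, against 48.6 and 71.2 for Mt2. Its log2 fold changes were -2.71 (SE 0.37, padj = 2.28e-05) and -3.70 (SE 0.38, padj = 1.62e-06). Tgfb2 rested on 14 counts over the 3 F4/80+ samples and 6 counts over the 3 CD11b+ samples, with 0 in CD11b+ replicate 3. Its fitted log2 fold changes were -3.71 (SE 0.61, padj = 0.000137) and -4.93 (SE 0.68, padj = 2.46e-05), sizes that depend on very few reads. Without CD11b+ replicate 1 the latter was -5.80.

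Tgfb3 and Tgfbr2 were not called in either population. Tgfb3 was at 21.4, 25.6 and 14.7 CPM in F4/80+ cells and at 20.03, 19.4 and 4.35 CPM in CD11b+ cells, a range that overlapped Mt2 tissue, with CD11b+ replicate 3 far below the others. Its log2 difference from Mt2 was -0.13 in F4/80+ cells (SE 0.55, padj = 0.857) and -0.62 in CD11b+ cells (SE 0.55, padj = 0.353). Tgfbr2 was at 269, 268 and 280 CPM in F4/80+ cells and at 240, 272 and 185 CPM in CD11b+ cells. Its log2 difference was 0.71 in F4/80+ cells (SE 0.22, padj = 0.0132), under the threshold on the fold, and 0.48 in CD11b+ cells (SE 0.22, padj = 0.0723).

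Of the 8 members, 3 were thus higher and 3 lower than Mt2 in each population. Among 18407 genes tested, 42.3% were changed from Mt2 to F4/80+ (17.2% higher, 25.2% lower) and 43.9% from Mt2 to CD11b+ (17.6% higher, 26.3% lower), against 6 of the 8 members in both. The 6 calls held in each population with any 1 Mt2 or sorted sample left out. The 2 comparisons share the Mt2 samples. Stellate cell and fibroblast markers summed to 425 and 505 for Mt2 and to 49.3 to 170 CPM over the sorted cells, and 10 of the 12 were called lower in each population. All 13 hepatocyte markers were lower in each population too, and of 13 endothelial markers 10 were lower in F4/80+ cells and 12 in CD11b+ cells. The part of these markers in the values of Inhba, Tgfbr3 and Tgfb2 was not tested.

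Between the sorted populations, 0 of the 7 members tested were called, against 0.0771% of 14263 genes (0.00701% higher and 0.0701% lower in F4/80+ cells), and Tgfb2 was too low to be tested. At an unadjusted p under 0.05 edgeR passed 1 member, Tgfbr1, against 10.5% of all genes, and DESeq2 called 0 members and 300 genes. Tgfbr1 was higher in each F4/80+ sample than in any CD11b+ sample, as were 15.1% of all genes, with a log2 difference of 0.48 (SE 0.18, padj = 0.439). Tgfbr3 had the widest difference, 0.94 (SE 0.42, padj = 0.471), and its samples overlapped. For Tgfb1 the difference was 0.00 (SE 0.18, padj = 0.996) and for Tgfbi 0.09 (SE 0.20, padj = 0.839). Within the sorted samples Tgfb1 made up 91.0% to 98.5% of the summed FPKM of the 3 Tgfb genes, above the 59.1% and 73.1% of Mt2 tissue.

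**Figure D4:**
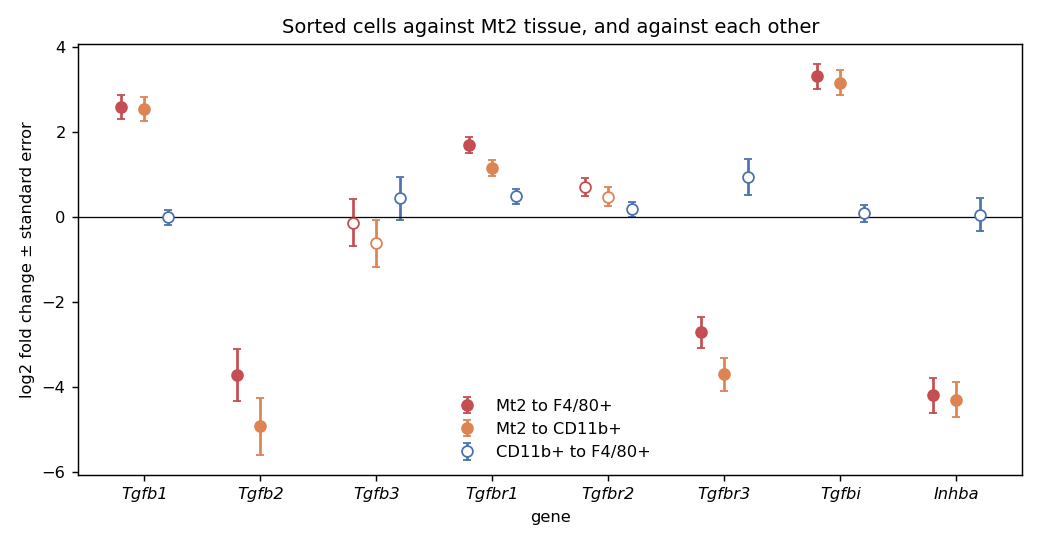
Log2 fold change with standard error of each member from Mt2 tissue to F4/80+ cells (red), from Mt2 to CD11b+ cells (orange) and from CD11b+ to F4/80+ cells (blue); filled points were called and open points were not. Tgfb1, Tgfbr1 and Tgfbi lie above 0 and Tgfb2, Tgfbr3 and Inhba below 0 against Mt2 in both populations, and no blue point is filled.

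A further 89 genes of the pathway were listed by role, of which 86 were tested in tissue. From con to Lt, 28 were called higher and 0 lower, against 12.4% and 0.256% of all genes. From con to Ht 41 were higher and 17 lower, against 25.8% and 24.1% of all genes, with a median log2 fold change of 0.96. The 29 listed targets led both counts, with 17 higher from con to Lt, and 22 higher and 2 lower from con to Ht. In the same comparisons most macrophage and monocyte markers were called higher, and 5 of 12 stellate cell and fibroblast markers were higher in each, with 5 lower from con to Ht. All 13 hepatocyte markers were lower from con to Ht, and the part of these markers in the lists of the pathway was not tested. Col3a1, a fibrillar collagen, rose from 46.1 to 4885 CPM from con to Ht (log2 fold change 6.71, SE 0.68, padj = 0.000119). Col1a1, the main collagen of scar tissue, rose by 6.25 (SE 0.72, padj = 0.000178), and Twist1, a transcription factor of epithelial-mesenchymal transition, by 5.66 (SE 0.55, padj = 0.000105). Expression of these genes is not a measure of signalling.

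Most of the genes called among those that hold or release latent TGF-beta were higher in tumor tissue than in con. Of 14 tested, 7 rose from con to Lt, against 12.4% of all genes. From con to Ht 10 rose and 1 fell, against 25.8% and 24.1% of all genes, beside the same shifts in cell type markers. Thbs1, thrombospondin 1, an activator of latent TGF-beta, rose from 1.84 to 499 CPM from con to Ht (log2 fold change 8.07, SE 0.80, padj = 0.000109). The latent TGF-beta binding proteins Ltbp1 and Ltbp3 rose by 4.75 and 4.83 (SE 0.38 and 0.45), and fibrillin 1 (Fbn1), to which they are tethered, by 5.33 (SE 0.46). From Mt to Ht, Ltbp3 rose by 1.01 (SE 0.29, padj = 0.0366), while Furin, the protease that cuts the precursor, fell by 1.23 (SE 0.33, padj = 0.0317).

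Of the other ligands of the family more fell than rose. Of 11 tested from con to Ht, 6 fell and 2 rose, against 24.1% and 25.8% of all genes. The median of the 11 was -2.41, against 0.09 over all genes. Inhbc and Inhbe, activin subunits made by hepatocytes, had log2 fold changes of -4.68 and -3.45 (SE 0.71 and 0.64) and were called lower, in the same samples in which Inhba rose. Bmp6, an iron-regulating ligand, fell by 3.78 (SE 0.41). From Mt to Ht the same list had 6 lower and 0 higher, against 13.4% and 1.5% of all genes, and Inhbc fell by 3.95 (SE 0.64, padj = 0.00861). The hepatocyte marker sums were lower along with these genes, and their part was not tested.

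Genes of the remaining lists were called about as often as all genes from con to Ht, of which 25.8% were higher and 24.1% lower. Of 10 SMADs and co-regulators tested from con to Ht, 3 rose and 2 fell. Smad5, which serves BMP receptors, rose by 1.63 (SE 0.21), and Smad4, the common partner of the SMADs, fell by 1.32 (SE 0.30). Of 14 inhibitors and feedback genes, 4 rose and 3 fell. Pmepa1, a feedback inhibitor that is itself induced by TGF-beta, rose by 4.33 (SE 0.36) from con to Ht and by 2.56 (SE 0.34) from con to Lt. Of 9 other receptors and co-receptors tested from con to Ht, 1 rose and 3 fell, and endoglin (Eng), a co-receptor of endothelial cells, fell by 1.27 (SE 0.23). The endothelial marker sums were also lower in Ht than in con, and their part was not tested.

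In sorted cells more genes of the pathway were lower than in Mt2 tissue than were higher. From Mt2 to F4/80+ 9 of the 86 pathway genes were higher and 46 lower, against 17.2% and 25.2% of all genes. From Mt2 to CD11b+ 6 were higher and 48 lower, against 17.6% and 26.3% of all genes. Of the 29 targets 0 were higher and 21 lower in each population, against 25.2% of all genes lower in F4/80+ cells and 26.3% in CD11b+ cells. Stellate cell and fibroblast markers were lower with them, 10 of 12 in each population with medians of -4.57 and -4.97, and their part was not tested. Acta2, smooth muscle actin, was at 61.1 ± 42.0 CPM (SD, n = 2) for Mt2 and 1.47 ± 0.96 CPM (SD, n = 3) in F4/80+ cells. The collagen gene Col1a2 was at 249 ± 123 CPM (SD, n = 2) for Mt2 and 2.58 ± 1.80 CPM (SD, n = 3) in CD11b+ cells. Genes higher in F4/80+ cells included Nrros, the anchor of latent TGF-beta on myeloid cells, at 40.4 for Mt2 and 401 CPM in F4/80+ cells (log2 fold change 3.31, SE 0.25, padj = 2.28e-07). The type I receptor Acvrl1 was higher by 3.01 (SE 0.32), the co-repressor Tgif1 by 1.85 (SE 0.21) and the adaptor Dab2 by 2.81 (SE 0.45). In CD11b+ cells Acvrl1 was also higher than in Mt2, by 2.92 (SE 0.32), and Tgif1 by 1.49 (SE 0.20). Between the sorted populations 0 of the 74 pathway genes tested were called, against 0.0771% of all genes. Bmpr1a, a BMP receptor, was lower, with log2 fold changes of -3.29 (SE 0.15) in F4/80+ cells and -4.33 (SE 0.16) in CD11b+ cells.

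**Figure D5:**
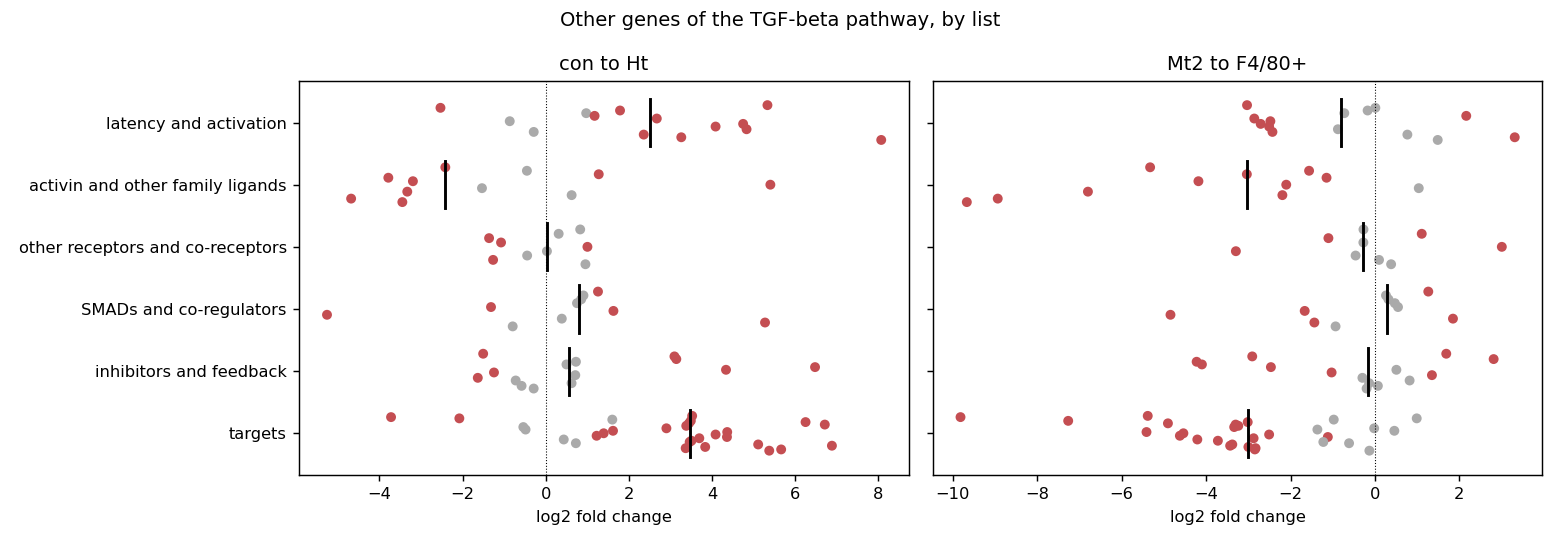
Log2 fold change of the other pathway genes by list from con to Ht and from Mt2 to F4/80+; each point is a gene, red if called and grey if not, and black bars are list medians. The targets have a median of 3.46 from con to Ht and of -3.01 from Mt2 to F4/80+.

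The members followed each other unevenly across the 13 tissue samples. Pearson's r of log2(CPM + 1) between members ran from 0.66 for Tgfbr1 with Inhba to 0.97 for Tgfb1 with Tgfbr2. All points share the shift in tumor content and in day. Among 13928 genes with a mean of at least 1 CPM, the gene most like Tgfb1 was Actb (r = 0.993), followed by Sh3bp1 and Dusp5 (0.991 each). Praf2 was most like Tgfb3 (0.995), Gnb2 most like Tgfbr3 (0.995) and Fignl1 most like Tgfbi (0.995). The least closely matched were Tgfbr1, with Skil at 0.955, Inhba, with Zc3hav1 at 0.971, and Tgfb2, with Gm21742 at 0.939. These values describe likeness over samples that form a gradient, and no p is given.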

How the data were processed

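Bulk RNA-seq libraries of liver tissue and of sorted cells were compared. The authors deposited raw counts per gene and library, without normalization, in a table for tissue and a table for sorted cells. The submitters' processing notes name CASAVA, HISAT2 2.0.5, featureCounts 1.5.0-p3 and the builds GRCm38 and mm10. The tables were joined on the gene identifier, and 0 columns of sample values were left unmapped. The members and gene lists were chosen with earlier results of these data known.

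Counts were tested in R 4.3.3 with edgeR 4.0.16 (TMM, filterByExpr, quasi-likelihood F test, Benjamini-Hochberg adjustment over all genes tested). A call needed padj of 0.05 or less and a log2 fold change of 1 or more in either direction. The tissue fit held 13 samples in 7 groups, the sorted-cell fit 6 samples and the joint fit 19 samples in 9 groups. Mt was the mean of the Mt3, Mt2 and Mt1 coefficients. CPM values come from the joint fit, and standard errors from the F statistic. SD is over samples of a group. The tested fold changes of tissue groups come from the tissue fit. Floors cover counting error only, since reads had no molecular identifiers.

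Genes named besides the members were, per list and comparison, up to 4 with the largest absolute log2 fold change among those called whose groups did not overlap, markers, and the 3 genes most like each member; of these a part is described, chosen after their values were seen. The genes most like Tgfbr2 are not reported here. Counts were simulated with 200 changed genes, drawn from genes with higher counts and given changes well above the threshold on the fold. Of these, 87.5% were recovered for con to Lt over 16493 genes and 95.0% for Mt to Ht over 16506. For CD11b+ to F4/80+ 97.0% were recovered over 14016 genes, and for Mt2 to F4/80+ 91.0% over 17219. In that order, 4, 11, 11 and 4 genes were called wrongly. Recovery of smaller changes or of genes with few counts was not simulated. Alternatives were DESeq2 1.42.0, total-count scaling, a minimum of 10 counts in every library, no filter, no threshold on the fold, a fit restricted to the compared groups, pooling of Mt into 1 group, separate Ht libraries, omission of Ht_3, a replicate block, and leaving out each replicate.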

Additional observations from a re-analysis of the deposited data

Results flagged for a closer look

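In L-con, the single library of tumor-free liver from a CRLM-bearing mouse, which entered no comparison, 4 of the 8 members were above both con samples, as were 38.3% of all genes tested in tissue. Tgfb1 was at 25.1 CPM there, against 14.8 and 20.2 CPM in con. Tgfbr2 was at 66.4 CPM, against 40.0 and 49.8 CPM. Tgfbi was at 87.9 CPM, against 43.8 and 49.6 CPM. Inhba was at 26.6 CPM, against 4.67 and 12.8 CPM, the widest gap of these at 3.05 times the con mean. All 4 were below both Lt samples, a position that 17% of all genes shared. Tgfb3, Tgfbr1 and Tgfbr3 lay between the con samples in L-con, and Tgfb2 was below them at 0.778 CPM, or 9 counts. With 1 library no difference was tested. In the same library macrophage markers summed to 1262 CPM, against 528 and 761 CPM in con, and Kupffer cell markers to 959 CPM, against 337 and 448 CPM. Monocyte markers summed to 91.9 CPM, against 9.75 and 12.8 CPM, and neutrophil markers to 15.99 CPM, against 3.62 and 5.22 CPM. The part of these markers in the members' values was not tested.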

How the results depend on the processing

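Over 299 checks of called values of a member under an alternative, 282 kept the call and 0 changed sign. The con to Lt count ran from 1 to 5 when each replicate was left out and was 4 with total-count scaling and with only the groups compared, and the cause was not tested. The con to Lt call of Tgfb1 held under 6 of its 12 alternatives. The Lt to Mt count of 0 became 1 without a filter (Tgfb2). The Mt to Ht count of 0 became 1 with DESeq2, with Ht as 3 libraries, without a filter and without the fold threshold, 3 with total-count scaling, and ran from 0 to 1 when each replicate was left out. The strict filter removed Tgfb2. With total-count scaling 2587 genes were called higher and 1773 lower from Mt to Ht, in place of 257 and 2306, and the all-gene median became 0.55; it became 0.40 from con to Lt and 0.33 from Lt to Mt. Of all genes, DESeq2 called 300 from CD11b+ to F4/80+ in place of 11.

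The labels do not say that a replicate number marks a shared animal or batch. Each gene's group mean was subtracted on the log2 scale, and the deviations left in same-numbered samples were correlated. They correlated at -0.165 (con and Lt), -0.101 (con and Ht) and 0.30 to 0.63 (Lt and Mt groups). For Mt groups and Ht the values were -0.26 to -0.38, and for sorted cells -0.142 to 0.016. With 2 samples in a group the deviations mirror each other, so differently numbered tissue samples gave the same values with the opposite sign. With the replicate block 1 member was called from Mt to Ht (Tgfb3) and the other counts did not move; with exchanged numbers, chosen after seeing the data, 4 were called from con to Lt and 7 from con to Ht. In the block, values of members that were not called changed sign in these cases: Tgfb1 from CD11b+ to F4/80+ at 0.0089, Tgfb2 from Mt to Ht at 0.051 and Tgfb3 from Mt2 to F4/80+ at 0.39.

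The other changes of sign were of members not called. For Tgfb1 from CD11b+ to F4/80+ the log2 difference was 0.0067 with the strict filter, 0.0028 with no filter and 0.11 with total-count scaling, and ran from -0.12 to 0.13 when each replicate was left out. For Inhba there it ran from -0.23 to 0.34. For Tgfb2 from Mt to Ht it was 0.046 with DESeq2, 0.032 with Ht as 3 libraries, 0.078 with no filter and 0.50 with total-count scaling, and ran from -0.17 to 0.26. For Tgfbr1 from Mt to Ht it was -0.022 without Ht_3, -0.032 with Ht as 3 libraries, -0.00048 with Mt as 1 group and -0.012 with only the groups compared, and ran from -0.092 to 0.093. For Tgfbr1 from con to Lt it was -0.0077 with DESeq2 and ran from -0.081 to 0.20, and for Tgfb2 from con to Lt it ran from -0.063 to 0.47. For Tgfb3 it ran from -0.66 to 0.78 from Mt2 to F4/80+ and from -1.15 to 0.29 from Mt2 to CD11b+.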
